A study of Mus musculus with 8 samples.

Results

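Intercalated cells are the acid- and base-moving cells of the collecting duct, and 9 genes known as their transcription factors or identity genes are described here across high-salt and normal-salt diets. They were taken by symbol from tables of 55291 genes: Foxi1, Tfcp2l1, Dmrt2, Hmx2, Kit, Aqp12, Hepacam2, Insrr and Oxgr1. Outer medullary collecting ducts were dissected from enzyme-digested kidneys of C57BL/6J mice, an inbred strain, after 3 days on a high-salt (3%) or a normal-salt (0.3%) diet. No transgene, mutation or drug is named in the labels, and their age and sex were not used here. Each diet had 4 libraries of messenger RNA, each from a pool of dissected tubules of 1 mouse, and libraries are named by diet and by the number in the deposited column name.

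A-type and B-type intercalated cells are usually told apart. A-type cells secrete acid through a luminal proton pump and return bicarbonate through the exchanger Slc4a1. B-type cells secrete bicarbonate through pendrin (Slc26a4) and carry Slc4a9 on the opposite side. In mice Foxi1, a forkhead transcription factor, is needed for both kinds and activates genes of proton and anion transport, and Tfcp2l1, a factor of the CP2 family, is needed for their formation and is also made in principal cells. Dmrt2, a DM-domain factor, and the receptor kinase Kit are known from A-type cells. Hmx2, a homeobox factor, Insrr, a receptor kinase that responds to alkaline fluid, and Oxgr1, the receptor for alpha-ketoglutarate, are known from B-type and related pendrin-bearing cells. Hepacam2, an immunoglobulin-family adhesion protein, is known from intercalated cells in general, and Aqp12 is an intracellular aquaporin best known from the exocrine pancreas.

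All 9 genes are protein-coding in GENCODE M21 on GRCm38 (mm10). On the minus strand are Foxi1 (chromosome 11, 34204338 to 34208089), Hepacam2 (chromosome 6, 3457096 to 3498298) and Oxgr1 (chromosome 14, 120019585 to 120042435). On the plus strand are Tfcp2l1 (chromosome 1, 118627945 to 118685168), Dmrt2 (chromosome 19, 25672411 to 25678991), Hmx2 (chromosome 7, 131548773 to 131558014) and Kit (chromosome 5, 75574916 to 75656722). Insrr (chromosome 3, 87796951 to 87816101) and Aqp12 (chromosome 1, 93006334 to 93012269) are also read from the plus strand. Each value sums a whole gene, so isoforms and introns are not resolved.

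The 250 bases before the transcription start are shown for both general factors, Foxi1 and Tfcp2l1, and for 2 of the genes known from B-type cells, Hmx2 and Oxgr1, which varied most between libraries or did not overlap between the diets. The windows are from RefSeq on GRCm38.p6, read 5′ to 3′ along the gene. They are chr11:34208090-34208339 (minus strand) for Foxi1, chr1:118627695-118627944 (plus) for Tfcp2l1, chr7:131548507-131548756 (plus) for Hmx2 and chr14:120042436-120042685 (minus) for Oxgr1. Capitals mark TGTTT, the core of the forkhead motif, on either strand (TGTTT or AAACA).
Foxi1: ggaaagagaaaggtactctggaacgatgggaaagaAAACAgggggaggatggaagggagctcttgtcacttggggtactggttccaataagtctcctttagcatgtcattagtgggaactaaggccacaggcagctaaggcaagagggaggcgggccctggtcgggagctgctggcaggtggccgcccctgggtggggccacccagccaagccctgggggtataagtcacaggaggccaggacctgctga
Tfcp2l1: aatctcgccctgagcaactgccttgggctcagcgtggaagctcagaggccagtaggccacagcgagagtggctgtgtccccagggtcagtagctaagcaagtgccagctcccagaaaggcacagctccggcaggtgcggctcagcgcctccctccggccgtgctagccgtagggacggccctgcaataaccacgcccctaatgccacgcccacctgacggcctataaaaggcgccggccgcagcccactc
Hmx2: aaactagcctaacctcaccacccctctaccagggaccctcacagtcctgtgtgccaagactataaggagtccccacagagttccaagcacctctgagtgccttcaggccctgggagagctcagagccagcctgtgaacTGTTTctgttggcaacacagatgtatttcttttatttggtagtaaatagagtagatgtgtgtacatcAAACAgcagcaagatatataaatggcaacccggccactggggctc
Oxgr1: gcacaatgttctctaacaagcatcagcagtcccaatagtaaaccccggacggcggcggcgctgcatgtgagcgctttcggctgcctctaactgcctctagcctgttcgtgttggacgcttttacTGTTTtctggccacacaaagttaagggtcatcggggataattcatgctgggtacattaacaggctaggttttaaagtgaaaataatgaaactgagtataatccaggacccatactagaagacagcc
Windows were found for 8 of the 9 genes, with 10 start sites in all, and Insrr was not among them. The TGTTT core stood at 1 place each in the windows of Foxi1 and Oxgr1 and at 2 places in the window of Hmx2 shown here. It was in 0 of the other windows, and 46.4% of all 32851 windows of this length held it. The longer form TGTTTA, which contains TGTTT, was in 0 of the 10 windows, against 12% of all windows. These are matches of letters only.

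Measured per length of transcript, the levels of the 9 genes spanned a wide range with Tfcp2l1 and Foxi1 at the top. TPM (a share of all transcripts, scaled for length) is the scale on which genes are compared with each other, and means are over all 8 libraries. Tfcp2l1 averaged 488 ± 87.6 TPM and Foxi1 337 ± 47.3 TPM (SD, n = 8 libraries), and Tfcp2l1 was the higher of them in 7 of 8 libraries with overlapping ranges. Kit averaged 178 ± 41.4 TPM, and its range lay wholly below that of Foxi1. Dmrt2 averaged 140.0 ± 35.3 TPM and was below Kit in 6 of 8 libraries, with overlapping ranges. The exceptions were high-salt library 3 (Dmrt2 156, Kit 145 TPM) and high-salt library 4 (163 and 161 TPM). Hepacam2 followed at 72.0 ± 10.4 TPM.

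The genes known from B-type cells came lower. Oxgr1 averaged 42.9 ± 24.6 TPM, Insrr 19.1 ± 10.02 TPM and Hmx2 18.5 ± 10.02 TPM (SD, n = 8 libraries). Oxgr1 was above Insrr in 8 of 8 libraries, although their ranges overlapped, whereas Insrr was above Hmx2 in 4 of 8. By mean TPM Tfcp2l1 ranked 280 and Foxi1 441 among 30344 genes with any value, against 6684 for Insrr and 6804 for Hmx2.

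**Figure D1:**
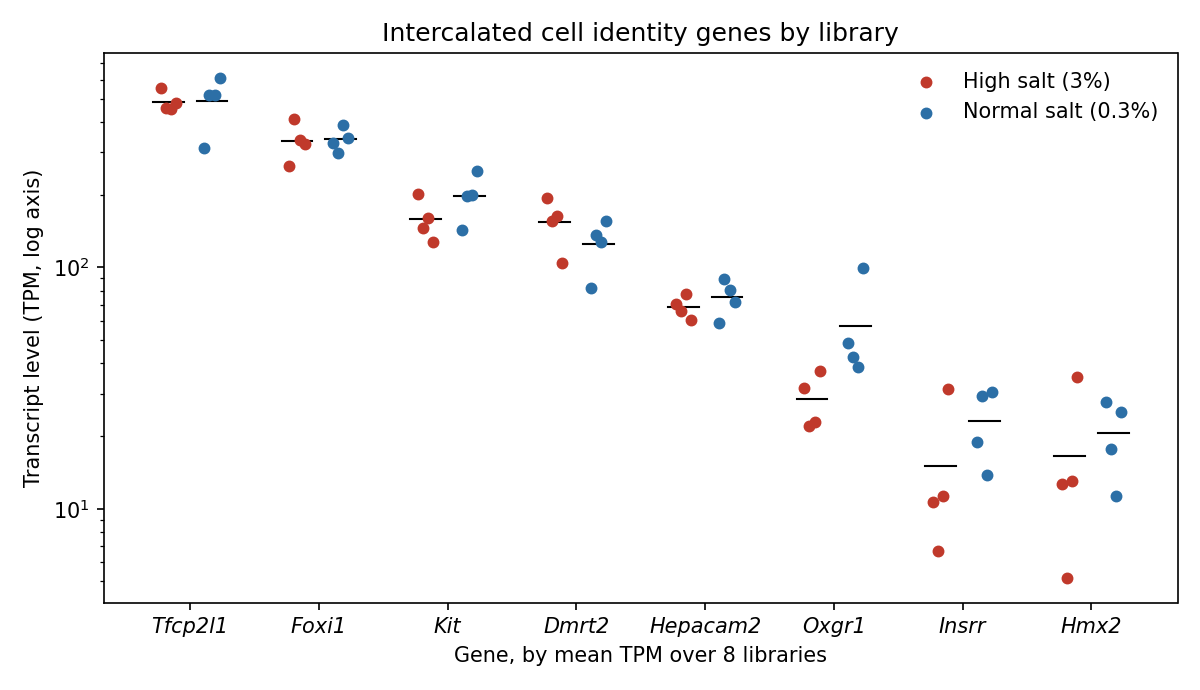
Transcript level in TPM on a log axis for 8 genes, with 1 point per library, high salt left of normal salt, and a bar at the mean of each diet. Aqp12 is left out because most of its libraries are at 0; only Oxgr1 has all high-salt points below all normal-salt points.

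Aqp12 was close to absent, so for this gene the data do not bear out its place among the identity genes in this segment. It had 9 estimated counts in high-salt library 2 and 0 in high-salt libraries 3, 4 and 6. Under normal salt it had 2 in library 2, 1 in library 3 and 0 in libraries 1 and 6. A count of 0 allows up to 3 counts, or 0.0399 CPM in high-salt library 3 and 0.0463 CPM in normal-salt library 1, a limit that covers counting error only. Aqp12 did not reach the level tested.

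Depth was 69.2 to 87.7 M estimated counts in the high-salt libraries and 64.8 to 94.1 M in the normal-salt libraries. High salt was compared with normal salt by limma on log2(CPM + 1), CPM being counts scaled to a common library total, over the 13401 genes with at least 1 CPM in at least 4 libraries. Of the 8 identity genes tested limma called 0 at a Benjamini-Hochberg adjusted p under 0.05, against 0.0821% of all genes (0.0298% with a rise and 0.0522% with a fall on high salt). At an unadjusted p under 0.05, 2 of the 8 were lower, Insrr and Oxgr1, against 4.37% of all genes lower and 10.3% in either direction. Oxgr1 was the 1 member whose diets did not overlap, against 2.75% of all genes with high salt wholly lower, 3.66% wholly higher and 6.4% in either direction. Lower means under high salt were found in 7 of the 8, against 47.2% of all genes. The median log2 fold change of the 8 was -0.22, against 0.01 over all genes. These are pooled tubules, in which fewer cells of a type and less RNA per cell cannot be told apart.

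The general intercalated factors had nearly equal means on both diets. Foxi1 was measured at 371, 589, 489 and 467 CPM in high-salt libraries 2, 3, 4 and 6, against 537, 416, 552 and 473 CPM in normal-salt libraries 1, 2, 3 and 6. Both the lowest and the highest library were high-salt ones. Its log2 fold change was -0.06 (SE 0.15, 95% interval -0.38 to 0.27, limma adjusted p = 0.932).

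Tfcp2l1 had 3106, 2619.5, 2626 and 2725 CPM under high salt, against 2129.5, 2912, 2979 and 3376 CPM under normal salt. The normal-salt libraries spanned the high-salt ones on either side. Its log2 fold change was -0.02 (SE 0.16, 95% interval -0.38 to 0.33, limma adjusted p = 0.974). Hepacam2, the steadiest of the 8 with a highest library 1.45 times its lowest, had 90.0, 85.2, 101 and 78.2 CPM under high salt and 92.1, 113, 106 and 90.1 CPM under normal salt. The diets overlapped, and its log2 fold change was -0.18 (SE 0.11, 95% interval -0.42 to 0.06, limma adjusted p = 0.624).

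The genes known from A-type cells differed in sign and neither passed the test. Dmrt2 was measured at 273, 222, 234 and 149 CPM under high salt and at 129, 189, 180.1 and 214 CPM under normal salt. It was the 1 member of the 8 with a higher mean under high salt, and 3 of its 4 high-salt libraries lay above every normal-salt one. High-salt library 6 was the exception. Its log2 fold change was 0.29 (SE 0.19, 95% interval -0.14 to 0.72, limma adjusted p = 0.661) and, over the 8 fits that each left out 1 library, lay between 0.15 without normal-salt library 1 (adjusted p = 0.761) and 0.46 without high-salt library 6 (0.354). Without high-salt library 2 it was 0.18 (0.857).

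Kit had 538, 429.6, 427 and 329.7 CPM under high salt and 377, 534, 531 and 614 CPM under normal salt. High-salt library 6 was its lowest library and normal-salt library 6 its highest. The log2 fold change was -0.25 (SE 0.17, 95% interval -0.63 to 0.13, limma adjusted p = 0.673). It was -0.13 without high-salt library 6, -0.16 without normal-salt library 6 and -0.39 without normal-salt library 1. Kit also marks mast cells. Of 7 mast cell markers 5, among them the protease Cpa3, were at 0 in every library. The 7 summed to at most 0.217 CPM under high salt and at most 0.176 CPM under normal salt. The part of mast cells in the Kit values was not tested.

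The genes known from B-type cells had the largest differences, all with lower means under high salt, and none passed over all genes. Oxgr1 was measured at 68.3, 48.4, 50.7 and 81.8 CPM in high-salt libraries 2, 3, 4 and 6, against 128, 91.8, 85.5 and 211 CPM in normal-salt libraries 1, 2, 3 and 6. Every high-salt library lay below every normal-salt one. The gap was small at its edge, since high-salt library 6 lay just under normal-salt library 3. Its mean was 62.3 ± 15.7 CPM under high salt and 129 ± 57.7 CPM under normal salt (SD, n = 4 each), with a log2 fold change of -0.98 (SE 0.27, 95% interval -1.57 to -0.39, limma adjusted p = 0.205).

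Insrr had 34.6, 22.4, 37.2 and 89.0 CPM under high salt and 70.4, 94.7, 45.7 and 97.3 CPM under normal salt. High-salt library 6 lay among the normal-salt libraries, and the other high-salt libraries lay below all of them. Means were 45.8 ± 29.5 CPM under high salt and 77.0 ± 24.2 CPM under normal salt (SD, n = 4 each). The log2 fold change was -0.86 (SE 0.37, 95% interval -1.67 to -0.05, limma adjusted p = 0.452). It was -0.59 without high-salt library 3 (adjusted p = 0.717) and -1.24 without high-salt library 6 (0.123).

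Hmx2 was measured at 11.7, 5.31, 12.7 and 35.6 CPM under high salt and at 29.6, 17.3, 11.2 and 25.4 CPM under normal salt. Its highest and lowest libraries were high-salt libraries 6 and 3, a range of 6.7 times. Means were 16.3 ± 13.3 CPM under high salt and 20.9 ± 8.21 CPM under normal salt (SD, n = 4 each), with a log2 fold change of -0.54 (SE 0.46, 95% interval -1.56 to 0.47, limma adjusted p = 0.746). That value rested on single libraries: it was -0.16 without high-salt library 3 and -1.002 without high-salt library 6.

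**Figure D2:**
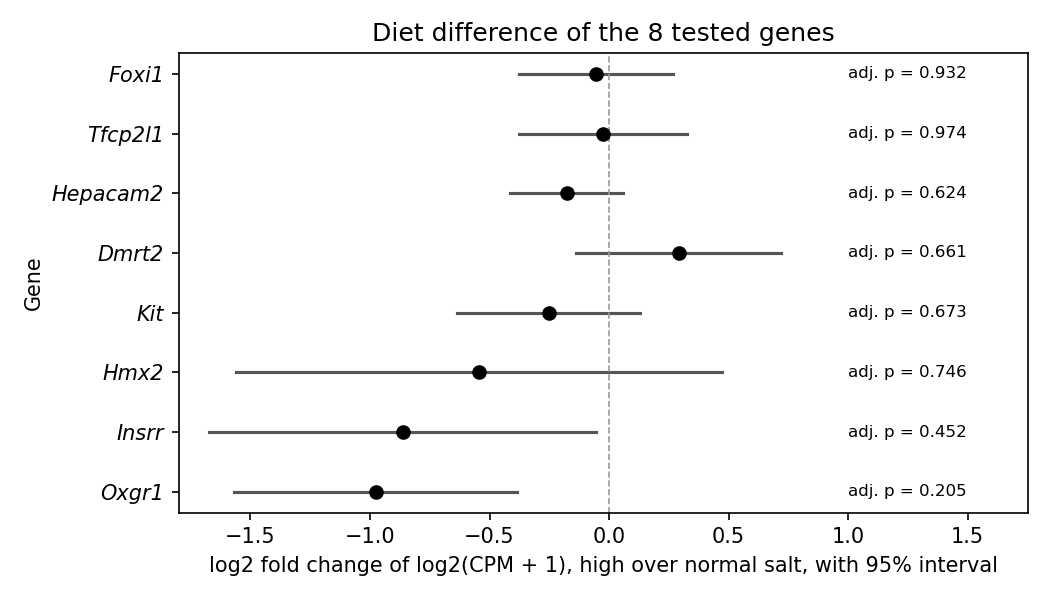
Log2 fold change of each tested gene, high salt over normal salt, on the log2(CPM + 1) scale, with its 95% interval from limma as a line and the adjusted p over all 13401 genes at the right. The intervals of Insrr and Oxgr1 lie below 0 without passing the adjusted test, and those of the other 6 genes cross 0.

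The transport genes of the same cells gave the setting for these values. Slc26a4, the bicarbonate-secreting exchanger pendrin, had 44.0, 35.0, 71.1 and 214 CPM in high-salt libraries 2, 3, 4 and 6, against 146, 144, 73.0 and 154 CPM in normal-salt libraries 1, 2, 3 and 6 (log2 fold change -0.82, SE 0.48, limma adjusted p = 0.6003). Slc4a9, the anion exchanger on the other side of B-type cells, had 82.5, 55.0, 91.3 and 235 CPM under high salt and 229.7, 202, 133 and 353 CPM under normal salt (-1.11, SE 0.40, limma adjusted p = 0.363). In both genes, as in Insrr, high-salt libraries 2, 3 and 4 lay below every normal-salt library and high-salt library 6 did not. Car15, a carbonic anhydrase placed in the same list, went the other way, with 183, 123, 518 and 504 CPM under high salt and 19.8, 102, 17.8 and 20.6 CPM under normal salt (3.19, SE 0.59, limma adjusted p = 0.0815). Of 6 genes in this B-type list 4 were tested, and 2 had lower and 2 had higher means (median log2 fold change -0.40), against 47.2% of all genes lower. Limma called 0 of them, against 0.0821% of all genes.

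Insrr kept close step with pendrin. In TPM, Insrr was 0.444, 0.358, 0.301 and 0.274 of Slc26a4 in high-salt libraries 2, 3, 4 and 6, against 0.280, 0.374, 0.352 and 0.356 in normal-salt libraries 1, 2, 3 and 6. This ratio averaged 0.344 ± 0.0750 under high salt and 0.341 ± 0.0417 under normal salt (SD, n = 4 each). It varied 1.62 times between libraries, where Insrr itself varied 4.69 times. The ratio of Oxgr1 to Slc26a4 varied 4.04 times, from 0.326 in high-salt library 6 to 1.32 in high-salt library 2.

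**Figure D3:**
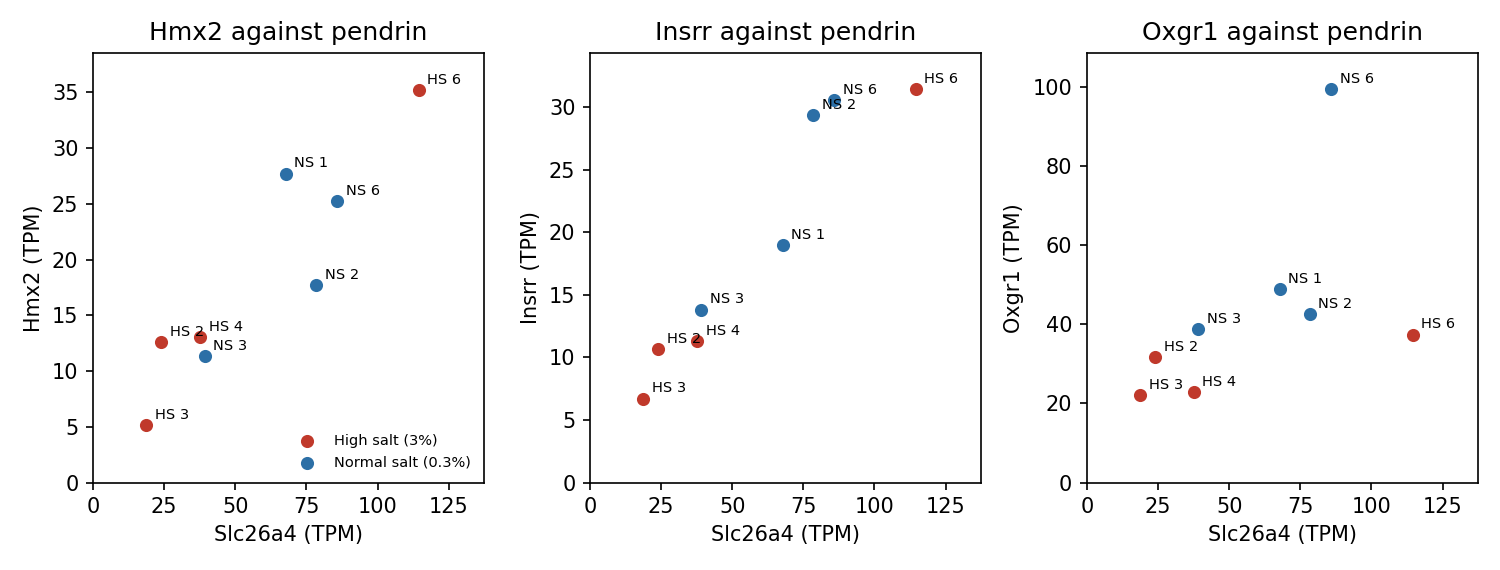
TPM of Hmx2, Insrr and Oxgr1 against TPM of Slc26a4 (pendrin), with 1 labelled point per library (HS, high salt; NS, normal salt). Hmx2 and Insrr are highest in high-salt library 6, where Slc26a4 is highest too, whereas Oxgr1 is highest in normal-salt library 6.

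Among the members, the 3 genes known from B-type cells varied together and Foxi1 varied with none of them. Over the 8 libraries Pearson's r of log2(CPM + 1) was 0.88 between Hmx2 and Insrr (Spearman's rho 0.74), 0.78 between Insrr and Oxgr1 (rho 0.86) and 0.69 between Hmx2 and Oxgr1 (rho 0.60). Tfcp2l1 and Kit had 0.77 (rho 0.81). Foxi1 had negative values with all 7 others, from -0.09 with Oxgr1 to -0.48 with Tfcp2l1. The lowest of the 28 pairs was Dmrt2 with Hmx2 (r = -0.65, rho -0.60). These values describe 8 libraries that share diet, depth and cell makeup as sources of variation.

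Of 11971 other named genes ranked by likeness to Insrr, the most like was Rragd, a GTPase of nutrient signalling (r = 0.98, rho 0.93). Slc4a9 took place 6 (r = 0.97) and Slc26a4 place 8 (r = 0.96). For Hmx2 the most like was Slc25a42, a mitochondrial carrier of coenzyme A (r = 0.97), and Slc26a4 took place 19 (r = 0.94). For Oxgr1 it was Ccdc137 (r = 0.98), with Slc4a9 at place 67 (r = 0.89), the proton pump subunit Atp6v1b1, shared by both kinds of cell, at place 103 (r = 0.88) and Slc26a4 at place 815 (r = 0.68). Umod, a thick ascending limb marker, took place 46 for Insrr (r = 0.89) and place 40 for Hmx2 (r = 0.91).

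The genes most like Foxi1 were Trmt10c, a mitochondrial tRNA methyltransferase (r = 0.96), Slc7a6os (0.96), Tarbp2, a partner of Dicer (0.94), and Fam53a (0.93), none of them a gene of acid or base transport in the lists used here. Slc4a1 had r = -0.09 and Slc26a4 r = -0.13 with Foxi1. For Kit the most like was Mib2, a ubiquitin ligase (0.96), for Dmrt2 Zfp763 (0.98), for Tfcp2l1 the kinesin Kif3b (0.98) and for Hepacam2 Serpinb9, a protease inhibitor (0.93). Such values are the highest of 11971 over 8 points, and no test was made of them.

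Across libraries, thick ascending limb markers, which belong to an adjacent tubule, moved with Hmx2, Insrr, Slc26a4 and Slc4a9. The mean log2(CPM + 1) of 10 such markers was 3.20, 3.37, 4.39 and 6.00 in high-salt libraries 2, 3, 4 and 6, against 5.61, 4.90, 4.54 and 5.41 in normal-salt libraries 1, 2, 3 and 6. Without Kcnj16, a potassium channel that the collecting duct also uses, they summed to 98.3 to 2749 CPM under high salt and 602 to 2143 CPM under normal salt. Nos1, at no more than 0.330 CPM, was the member nearest to 0. The 4 libraries lowest in the marker mean, high-salt libraries 2, 3 and 4 and normal-salt library 3, were also the 4 lowest in Hmx2, Insrr, Slc26a4 and Slc4a9, a set shared by 1.9% of all tested genes. Only 3 of them were among the 4 lowest in Oxgr1, and 1 was among the 4 lowest in Car15.

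With the marker mean as a covariate the log2 fold change was 0.14 for Hmx2 (limma adjusted p = 0.969), -0.36 for Insrr (0.837) and -0.75 for Oxgr1 (0.464). Dmrt2 and Kit had 0.06 and -0.44 in the same fit. The part of the adjacent tubule in these differences was not tested beyond this fit.

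Markers of principal cells, the other main cell of this duct, also differed between the diets in sum. The 11 markers summed to 27888 to 32407 CPM under high salt and 19598 to 24664 CPM under normal salt, with no overlap. Much of that sum was the water channel Aqp2, which averaged 15689 CPM under high salt and 9979 CPM under normal salt. The mean log2(CPM + 1) of the 11, in which each gene counts equally, overlapped, at 10.02 to 10.06 under high salt and 9.96 to 10.10 under normal salt. Of the 11, 6 had higher and 5 lower means. Limma called 1, the sodium channel subunit Scnn1a, which fell (log2 fold change -1.33, adjusted p = 0.0260), against 0.0821% of all genes. Under high salt 3 lay wholly higher and 2 wholly lower, against 3.66% and 2.75% of all genes. At an unadjusted p under 0.05, 3 were higher and 2 lower, against 10.3% of all genes in either direction.

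Of 7 markers of the distal convoluted and connecting tubule 5 were tested, and all 5 had higher means under high salt, against 47.2% of all genes lower. Limma called 0 of them, against 0.0821% of all genes. At an unadjusted p under 0.05, 3 were higher, against 10.3% of all genes in either direction. Under high salt 2 lay wholly higher, against 3.66% of all genes. They summed to 213 to 408 CPM under high salt and 175 to 285 CPM under normal salt. Summed markers of proximal tubule, fibroblasts, endothelium, macrophages and urothelium overlapped between the diets. The part of these cells in the values of the identity genes was not tested.

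**Figure D4:**
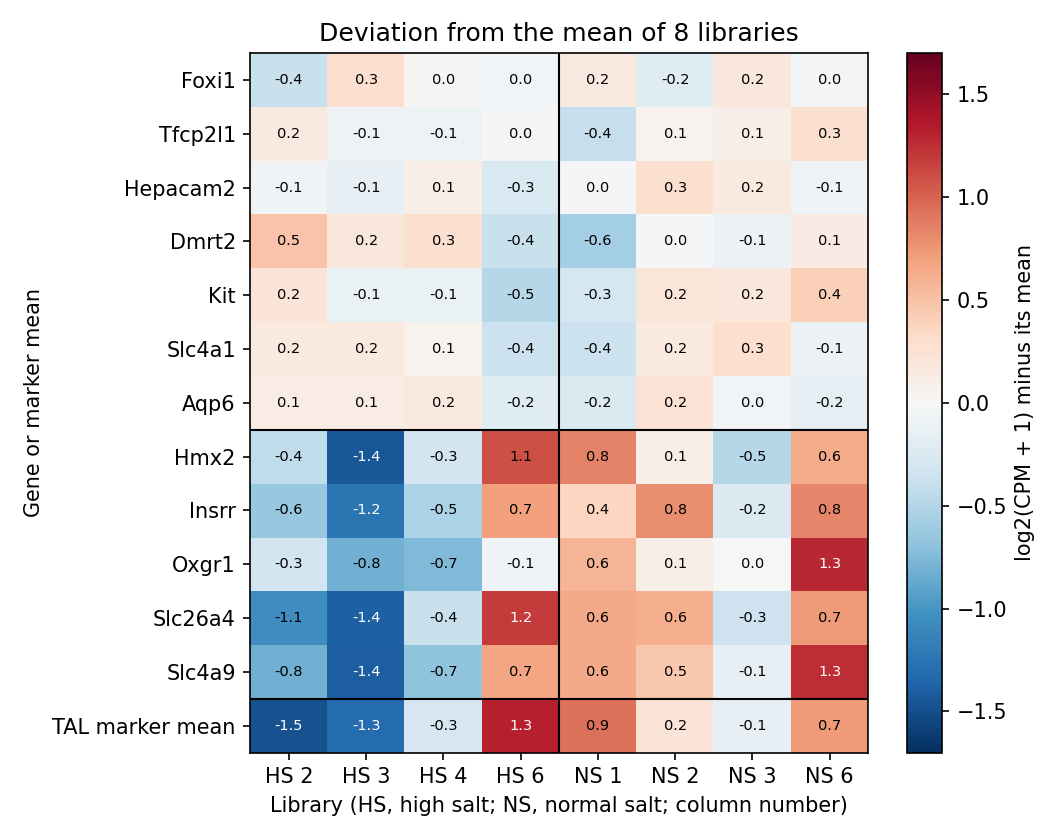
Deviation of log2(CPM + 1) from its mean over 8 libraries, for members and transport genes known from A-type cells or both kinds (upper block), from B-type cells (middle block) and for the mean of the thick ascending limb (TAL) markers (bottom row), with high-salt libraries left of normal-salt ones. The middle block and the bottom row lie below their means in high-salt libraries 2, 3 and 4, and the marker mean, Hmx2, Insrr, Slc26a4 and Slc4a9 lie above theirs in high-salt library 6.

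All 19 listed transport genes of A-type cells, or shared by both kinds, were tested. Limma called 0, against 0.0821% of all genes. At an unadjusted p under 0.05, 9 of 19 had a lower and 1 a higher mean, against 4.37% of all genes lower. Under high salt 7 of 19 lay wholly lower, against 2.75% of all genes. The list had a median log2 fold change of -0.16 against 0.01 over all genes. Rhcg, an ammonia channel also found in principal cells, had a log2 fold change of -0.56 (limma adjusted p = 0.109), and the proton-potassium pump Atp12a had 1.21 (0.155). Slc4a1, the bicarbonate exchanger of A-type cells, and the intracellular water channel Aqp6 had 0.01 and 0.10, close to Foxi1. Aqp6 averaged 2898 ± 339 TPM under high salt and 2678 ± 585 TPM under normal salt, and Slc4a1 1329 ± 211 and 1265 ± 371 TPM (SD, n = 4 each). Both lay above the mean of every member.

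Close relatives of the members were mostly at low levels. Of 20 relatives 11 were tested, and limma called 0, against 0.0821% of all genes. At an unadjusted p under 0.05 there were 0, against 10.3% of all genes in either direction. Higher means were found in 2 and lower means in 9 (median log2 fold change -0.06), against 47.2% of all genes lower. Foxi2 and Foxi3, the other FOXI genes, and the DM-domain genes Dmrt1 and Dmrta1 did not reach the level tested. Hmx3, the neighbour and close relative of Hmx2, had 1.93 ± 1.30 CPM under high salt and 1.78 ± 0.687 CPM under normal salt (SD, n = 4 each; log2 fold change -0.01). Insr, the insulin receptor and a relative of Insrr, had 29.8 ± 4.10 TPM under high salt and 32.0 ± 10.1 TPM under normal salt, above Insrr in mean TPM on both diets. Its log2 fold change was -0.15 (limma adjusted p = 0.788), and that of Igf1r, the receptor for insulin-like growth factors, was -0.06 (0.881). Aqp11, another intracellular aquaporin, had -0.43 (0.573), and Csf1r, a receptor kinase related to Kit and a macrophage marker, -0.38 (0.732). In TPM the direction of Aqp11 turned, with means of 3.02 ± 0.861 under high salt and 2.20 ± 0.556 under normal salt (SD, n = 4 each).

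The ligand of Kit and the enzymes that handle the ligand of Oxgr1 did not pass the test either. Kitl, the stem cell factor that binds Kit, had 166, 83.1, 151 and 152 CPM under high salt and 79.0, 143, 113 and 145 CPM under normal salt (log2 fold change 0.19, limma adjusted p = 0.831). Ogdh, a subunit of the enzyme that consumes alpha-ketoglutarate in the citric acid cycle, had 738, 832, 719 and 803 CPM under high salt and 663, 665, 711 and 678 CPM under normal salt. It was the 1 gene of the 11 in this list whose diets did not overlap (0.18, limma adjusted p = 0.525), against 3.66% of all genes with high salt wholly higher. Idh2 (-0.20, 0.695) and Glud1 (0.12, 0.713), which make alpha-ketoglutarate in mitochondria, overlapped. Of the 11 genes limma called 0, against 0.0821% of all genes. At an unadjusted p under 0.05 there were 0, against 10.3% of all genes in either direction. Higher means were found in 8 and lower means in 3 (median log2 fold change 0.11), against 47.2% of all genes lower.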

How the data were processed

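Messenger RNA of dissected outer medullary collecting ducts was measured in 8 libraries, 4 per diet. The build mm10 and the tools Trimmomatic and FastQC are named per the submitters' processing notes. No aligner, counter, strand setting or annotation could be taken from them. The authors deposited CPM on a log2 scale with a shared floor of -5.29, and TPM summing to 999838 to 999898 per library. Linear CPM had been assumed when the test was chosen. Deposited log2 values were therefore turned back to a linear scale, less the floor, with each library scaled to 1 M. CPM steps gave estimated counts in multiples of 0.01, of which 83.8% to 85% were whole within 0.005 counts, so no count model was used, and totals of 64.8 to 94.1 M set the precision.

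High salt was compared with normal salt by limma 3.58.1 in R 4.3.3 on log2(CPM + 1), with a mean-variance trend, over genes with at least 1 CPM in at least 4 libraries, two-sided, Benjamini-Hochberg adjusted over all of them. The fold change understates changes of low genes. The test was checked on simulated data, in which genes varied independently of each other and with a common relative spread. Variation shared between genes was not simulated. Column numbers do not match title numbers, so columns were tied to a diet only. Each library is 1 mouse.

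The members and lists were chosen with earlier results of these data known. Named genes were all members, and from each list the called genes, the 3 smallest p and the 2 highest levels, and the genes most like a member by Pearson's r, 4 for Foxi1 and 1 for each other tested member, without predicted genes and pseudogenes; Slc4a9 and Slc26a4 ranks, Slc4a1 and Slc26a4 against Foxi1, the ratios to Slc26a4, Hmx3, Foxi2, Foxi3, Dmrt1, Dmrta1, Kitl Atp6v1b1 and the markers Kcnj16, Nos1, Umod, Aqp2, Scnn1a and Cpa3 were added after values were seen. A gene of the transport list that this rule names is not reported here. Markers of proximal tubule, distal and connecting tubule, fibroblasts, endothelium, macrophages, urothelium and principal cells were also summed. Alternatives covered pseudocount, filter, TPM, scaling, moderation, weights, covariates, a block and left-out libraries.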

Additional observations from a re-analysis of the deposited data

Results flagged for a closer look

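In 9 of 68 groups of 4 libraries 1 library stood apart from the other 3, by a gap whose share of the group's whole range passed the 95% critical value of Dixon's test. Chance flags about 1 in 20 groups of independent, normally distributed values. CPM values need not be such, and some groups share genes, so the 9 cannot be weighed against this rate. Aqp12 was at 0.103 CPM in high-salt library 2 and at 0 in the other high-salt libraries (gap 1 of the range). Aqp6 was at 2483 CPM in high-salt library 6, against 3126 CPM in the next (0.883). The summed thick ascending limb markers were at 3252 CPM in high-salt library 6, against 964 CPM in the next (0.852).

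Under normal salt, Slc26a4 was at 73.0 CPM in library 3, against 144 CPM in the next (0.867). Car15 was at 102 CPM in library 2, against 20.6 CPM (0.966), and Atp12a at 19.2 CPM in library 6, against 8.50 CPM (0.860). Insr was at 103 CPM in library 1, against 158 CPM (0.878). In the same library the summed fibroblast and pericyte markers were at 320.0 CPM, against 88.6 CPM (0.917), and the summed macrophage markers at 67.3 CPM, against 36.5 CPM (0.937).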

How the results depend on the processing

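Limma called 0 of the 8 tested members under every other setting but 1. With the B-type list mean as a covariate, chosen after seeing the data, it called 1, Insrr (log2 fold change -1.17, adjusted p = 0.0398). Over all alternatives the limma adjusted p of Insrr was 0.0398 to 0.971. Its SE was 0.14 with that covariate and 0.37 in the main fit. That list holds Slc26a4 and Slc4a9, which varied with Insrr (r = 0.96 and 0.97), and Car15, whose mean was higher under high salt. Their part in this call was not tested. The unadjusted limma p of Insrr was 0.039 in the main fit, 0.094 with TPM, 0.073 without a filter and 0.055 without a trend. It stayed under 0.05 with either pseudocount, median-of-ratios scaling, array quality weights and the replicate block. Over the left-out libraries it ran from 0.00088 without high-salt library 6 to 0.121 without high-salt library 3. Over the left-out libraries the log2 fold change was -1.14 to -0.71 for Oxgr1, -1.24 to -0.59 for Insrr, -0.39 to -0.13 for Kit, 0.15 to 0.46 for Dmrt2 and -1.002 to -0.16 for Hmx2. Signs turned for Hmx2 with the thick ascending limb covariate (0.14); for Tfcp2l1 with TPM (0.024); and, with the intercalated effector covariate, for Hmx2 (0.47), Insrr (0.10), Kit (0.051) and Tfcp2l1 (0.22). That covariate does not overlap between the diets (8.34 to 8.42 under high salt, 8.45 to 8.58 under normal salt), so it and the diet can hardly be told apart. Leaving out single libraries turned Foxi1 (0.060 without high-salt library 2) and Tfcp2l1 (0.00061 to 0.063). Over all genes 11 were called, against 0 without a filter (Oxgr1 adjusted p = 0.579) or with the effector covariate, 5 with TPM, 129 with array quality weights, 38 with the replicate block, 39 with the thick ascending limb covariate and 36 without high-salt library 6 and normal-salt library 1; leaving out 1 library gave 0 to 49 (0 without high-salt library 4 or normal-salt library 3, 1 without high-salt library 3 or normal-salt library 6, 5 without high-salt library 2 and 49 without normal-salt library 1). The cause of these shifts was not tested. The replicate block used the column numbers 2, 3 and 6 that both diets share. Deviations of same-numbered libraries correlated at 0.208, 0.287 and 0.002. Libraries of unlike number were not compared in this way, so whether the numbers pair mice was not settled. The main fit did not pair them. With the block Oxgr1 had -0.86 (SE 0.16, limma adjusted p = 0.0775), Insrr -0.85 (SE 0.21, 0.157) and Hepacam2 -0.28 (SE 0.077, 0.184). The SE of each tested member was lower with the block than in the main fit. Aqp12 had at most 9 estimated counts at library totals of 64.8 to 94.1 M, too few to compare the diets.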
